A study of Mus musculus with 3 samples.

Results

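The 32 genes described here encode transcription factors and cofactors of autonomic neurons, the peripheral neurons that control internal organs, and were taken by gene symbol from the feature lists of 3 single-cell RNA libraries of intrinsic cardiac neurons. All 32 were found in each library, among 30406 genes that the 3 libraries share. The cells were sorted by fluorescence from atria of Baf53b-cre;lox-GFP mice of both sexes, in which Cre driven by the neuronal Baf53b gene turns on GFP, so the same genotype underlies every library. One library came from atria with no section named (called mixed here, labelled 2 months of age), 1 from the anterior atrial region (3 months) and 1 from the posterior region (4 months). The protocol names 10 mice, and no source used here says whether libraries share animals, so region, labelled age and library cannot be told apart. Neurons were barcodes with at least 10000 unique molecular identifiers (UMIs, 1 per captured RNA molecule) and at least 1 UMI each of Snap25, Prph and Stmn2, which gave 1998 mixed, 1315 anterior and 1447 posterior neurons, or 4760 of 8361 barcodes.

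Autonomic neurons are specified by a cascade in which Phox2 homeodomain factors, bHLH factors such as Hand2, and the zinc finger factors Gata2 and Gata3 act together, with Isl1, Insm1, Tlx and Sox factors around them. Several of these remain expressed in adult ganglia, where they maintain transmitter genes. Parasympathetic neurons such as those of the heart share much of this cascade with sympathetic neurons. LIM-only proteins (Lmo1, Lmo3, Lmo4) bind no DNA and compete with or bridge LIM-homeodomain factors such as Isl1, and Eya proteins are coactivators of sine oculis homeobox proteins.

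Neurons were placed in 5 classes by marker levels per 10000 UMIs, none of them a member. The Ddah1 class had Npy below 4 and Ddah1 of at least 1 without Nos1, and held 336 mixed, 103 anterior and 436 posterior neurons. The Nos1 class had Nos1 of at least 1 (41, 77 and 50 neurons), and the Edn3 class (86, 125 and 78) and the Tspan8 class (165, 66 and 56) had Npy of at least 4 with at least 1 of the named gene. The other Npy class had Npy of at least 4 and passed none of the Nos1, Edn3 and Tspan8 limits, at any level of Ddah1 (1333, 914 and 738). Neurons past more than 1 of the Nos1, Edn3 and Tspan8 limits, or past no limit, entered no class: 17, 10 and 15 passed several limits and 20, 20 and 74 passed none. These are ranges of a marker and not proven types. Of the 90 mixed neurons at or above the Edn3 limit, 61 lay within 2-fold above it, and 73 neurons lay within 2-fold below.

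Total depth was 119825307 UMIs for the mixed, 55329380 for the anterior and 86391988 for the posterior library, and the neurons' median was 57062.5, 39854 and 57151 UMIs. The Edn3 class was the deepest in each library, with medians of 83313.5, 47573 and 66580 UMIs. Glial markers (a summed list that includes Fabp7, Sox10, S100b and Apoe) stood at 7.17 to 10.9 UMIs per 10000 over all neurons and at 1.21 to 6.16 in the Edn3 class. The 74 posterior neurons with no marker gate had a median of 14697 UMIs and 28.4 glial UMIs per 10000. Libraries shared 2 or 3 barcodes with each other. Levels below are sums of UMIs per 10000 in the order mixed, anterior, posterior. The 3 libraries are the replicates of the class comparisons.

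Phox2a, a homeodomain factor of noradrenergic and visceral neurons, had the highest level of the 32 genes in every library, at 7.43, 6.39 and 5.34 UMIs per 10000. With every neuron thinned to 10000 UMIs, 98.2%, 97.6% and 93.4% of neurons held a Phox2a UMI. Hand2, a bHLH factor of sympathetic and cardiac development, followed at 3.39, 4.17 and 3.55. Lmo1 reached 2.64, 3.09 and 2.31. The level of Isl1, a LIM-homeodomain factor, was 3.13, 2.41 and 2.43, and that of the homeodomain factor Tlx2 was 1.76, 2.73 and 2.85. Satb1, Gata3 and Tbx3 lay between 0.681 and 1.29 in all 3 libraries. The count is of 3' ends, so these levels do not scale with transcript length, although capture can differ between genes.

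**Figure D1:**
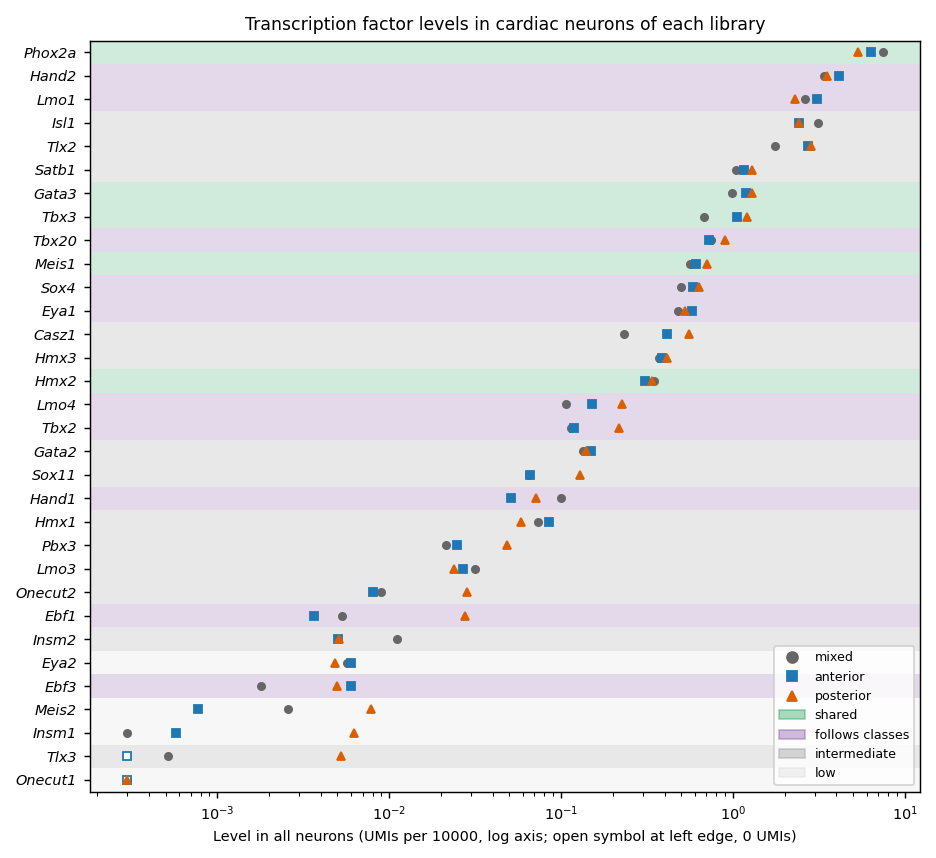
Level of each of the 32 genes in all neurons of each library, in UMIs per 10000 on a log axis, with 1 symbol per library and the row colour giving the class pattern. Phox2a is at the top in all 3 libraries, and Onecut1 has 1 UMI in the posterior neurons and none in the others.

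At the other end, 6 genes were too low for the class test, which required a mean of at least 1 CPM (a count scaled to library size) over the 15 library and class sums. Onecut1 had 0, 0 and 1 UMIs in all neurons, and Insm1, a zinc finger factor of endocrine and neuronal precursors, had 3, 3 and 50. Tlx3 had 6, 0 and 42 UMIs, and a single posterior neuron of the Ddah1 class held 27 of them. Insm2, Eya2 and Meis2 stayed at or below 0.0111 UMIs per 10000 over all neurons. A class with no UMI still allows up to 3 UMIs of its total.

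The promoters of 5 genes are shown because their genes mark the contrasts that follow. Phox2a is shared by all classes, Hand2 is low in the Ddah1 class, and Isl1 and Lmo1 are low in the Nos1 class. Of the 5 classes, Ebf3 has its highest level in the Nos1 class. Each sequence is the 250 bases before the first listed RefSeq start (GRCm38.p6), 5' to 3' on the gene's strand; 23 of the 32 genes had an entry. Capitals mark matches on either strand. The E-box of bHLH factors was searched as CAGATG. The zinc finger motif bound by Gata2 and Gata3 was searched as AGATAA, the homeodomain core as TAATTA and the motif of Meis proteins as TGACAG. A basal promoter element, TATAAA, and the palindromic motif of EBF factors completed the search.
Phox2a, chr7:101818063-101818312, plus strand: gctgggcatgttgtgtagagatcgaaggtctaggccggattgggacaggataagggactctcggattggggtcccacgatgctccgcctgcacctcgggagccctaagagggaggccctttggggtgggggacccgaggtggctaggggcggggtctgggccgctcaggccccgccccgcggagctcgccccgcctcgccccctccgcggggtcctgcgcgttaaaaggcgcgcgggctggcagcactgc
Hand2, chr8:57320733-57320982, plus strand: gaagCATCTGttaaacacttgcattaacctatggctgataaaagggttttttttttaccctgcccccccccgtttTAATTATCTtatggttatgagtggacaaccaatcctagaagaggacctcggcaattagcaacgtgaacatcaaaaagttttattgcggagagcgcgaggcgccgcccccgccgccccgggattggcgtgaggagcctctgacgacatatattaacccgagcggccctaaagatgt
Isl1, chr13:116309689-116309938, minus strand: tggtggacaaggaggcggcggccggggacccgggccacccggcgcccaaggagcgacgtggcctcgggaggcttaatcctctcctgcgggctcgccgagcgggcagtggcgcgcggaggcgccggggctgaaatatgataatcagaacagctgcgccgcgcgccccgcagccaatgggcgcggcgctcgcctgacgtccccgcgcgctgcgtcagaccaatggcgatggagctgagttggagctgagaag
Lmo1, chr7:109175208-109175457, minus strand: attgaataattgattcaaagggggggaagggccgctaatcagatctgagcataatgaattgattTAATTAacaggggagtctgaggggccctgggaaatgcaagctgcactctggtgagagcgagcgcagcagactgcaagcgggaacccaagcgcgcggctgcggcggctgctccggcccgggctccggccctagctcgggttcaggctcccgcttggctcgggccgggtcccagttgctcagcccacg
Ebf3, chr7:137314446-137314695, minus strand: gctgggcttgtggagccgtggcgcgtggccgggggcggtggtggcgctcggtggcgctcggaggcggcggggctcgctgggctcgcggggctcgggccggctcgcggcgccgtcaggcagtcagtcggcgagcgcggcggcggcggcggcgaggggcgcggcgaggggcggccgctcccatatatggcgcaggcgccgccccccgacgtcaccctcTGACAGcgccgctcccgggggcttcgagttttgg
The Hand2 promoter held the E-box 246, the GATA match 172 and the homeodomain core 175 bases upstream of the start, the last overlapping by 3 bases with the GATA match. Lmo1 held 1 homeodomain core and Ebf3 1 MEIS match, 34 bases upstream. Phox2a and Isl1 held none of these. Among 27025 promoters of the same length, the E-box was present in 14.5%, GATA in 10.3%, the homeodomain core in 4.9%, EBF in 0.788%, MEIS in 16.0% and TATAAA in 13.0%. For the 23 genes the counts were 2, 1, 2, 0, 1 and 2. Their median G and C content was 59.6% with 17 CpG sites, and that of all promoters 52% with 6.

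Of the 26 tested genes, Onecut2, Ebf1 and Ebf3 reached the level filter through 1 class, so they are described without a test and left out of the counts that follow. Over the 5 classes, 21 of the other 23 differed (edgeR quasi-likelihood test with library as a term, Benjamini-Hochberg adjusted p under 0.05), where the background over all genes was 47.0% of 12146. Sox11, a SoxC factor of immature neurons (adjusted p = 0.902), and Meis1, a TALE homeodomain factor (adjusted p = 0.108), did not pass. By size the genes split further. A gene was termed shared when every class of every library had at least 0.2 UMIs per 10000 and the highest class was under 2-fold above the lowest. That held for 5 of the 32 (Phox2a, Gata3, Tbx3, Meis1 and Hmx2), against 33.6% of all tested genes. Of the 13 members at 0.2 or more in every class, 5 were shared by this rule, where 91.2% of the 4468 genes at that level were. A gene followed the classes when it passed the test, differed at least 2-fold in each library and had the same highest class in all. That held for 8 of the 23 (Hand1, Hand2, Tbx2, Tbx20, Sox4, Eya1, Lmo1 and Lmo4), against 6.76% of all tested genes. Ebf1 and Ebf3 fell in this group by the rule too, but they reached the level filter through 1 class, so this is not read as a result. Ebf1 was intermediate without the posterior library and with thinned neurons. Another 4 were low (under 0.02 in every class: Insm1, Onecut1, Eya2 and Meis2) and 13 were intermediate. Over the alternatives run, 21 to 32 of the 32 genes kept their group. The fewest did when neurons were thinned to 10000 UMIs, which also moved neurons between classes.

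**Figure D2:**
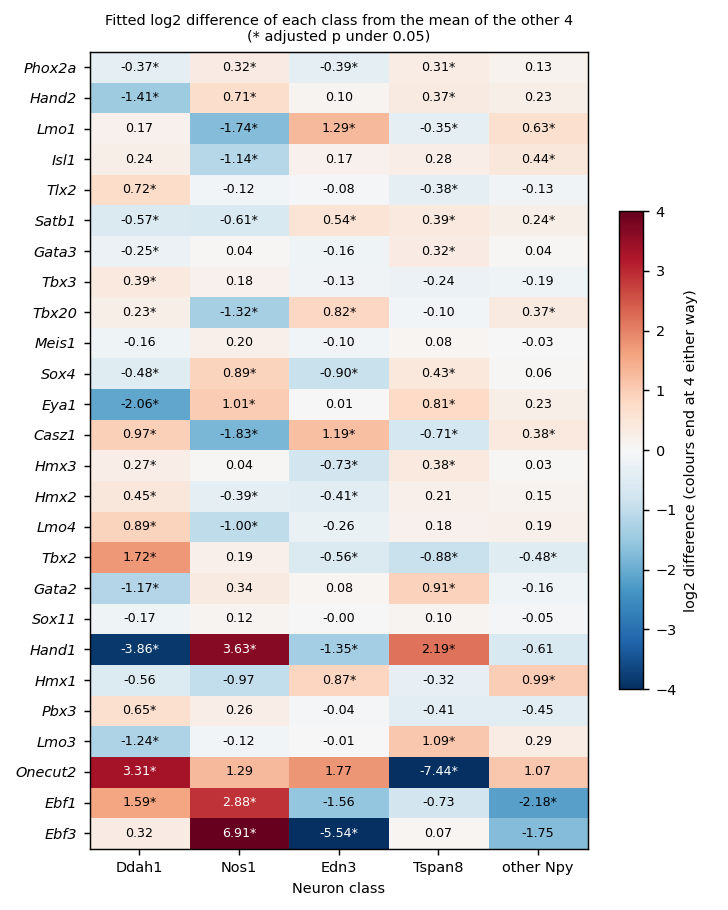
Fitted log2 difference of each class from the equal-weight mean of the other 4 for the 26 tested genes, ordered by level, with an asterisk where the adjusted p is under 0.05. Hand1 is lowest in the Ddah1 class (-3.86) and highest in the Nos1 class (3.63), while the rows of Meis1 and Sox11 hold no asterisk. Onecut2, Ebf1 and Ebf3 reached the level filter through 1 class, and their asterisks are not read as tests.

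The shared genes varied little. Phox2a stood at 5.76, 5.11 and 4.62 UMIs per 10000 in the Ddah1 class and at 8.14, 8.08 and 6.92 in the Nos1 class. The highest class was 1.53-fold above the lowest in the mixed library (Tspan8 over Ddah1) and 1.61-fold in the anterior library (Nos1 over Edn3). Gata3, a zinc finger factor that sustains noradrenergic genes in sympathetic neurons, ranged from 0.813 to 1.57 over the 15 sums. Tbx3, a T-box repressor, was highest in the Ddah1 class of each library (0.871, 1.37 and 1.52). The level of Meis1 lay between 0.452 and 0.86. Hmx2 and Hmx3 are neighbouring homeobox genes on chromosome 7 with the same orientation, 3847 bases apart in GENCODE vM21. Hmx2 was higher in the Ddah1 class (log2 0.45, SE 0.07, adjusted p = 9.63e-06) and Hmx3 was lower in the Edn3 class (log2 -0.73, SE 0.08, adjusted p = 1.51e-07), where Hmx3 stood at 0.221, 0.278 and 0.303.

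The Ddah1 class, poor in Npy, differed in 18 of the 23 genes: 9 were higher, where 16.7% of all genes were, and 9 were lower, where 16.1% were. The median absolute log2 difference of the 23 was 0.56, against 0.17 over all genes. At least 2-fold differences were called in 6 (2.57% of all genes were that much higher and 3.7% lower). Hand1, Hand2, Eya1, Gata2 and Satb1 were lower, and Tbx2, Casz1, Tlx2 and Hmx2 higher, under each alternative that tested them.
Hand2 (chr8:57320983-57324633, plus strand) stood at 1.44, 1.78 and 1.86 UMIs per 10000 in the Ddah1 class and between 3.68 and 6.27 in the other sums. The Ddah1 value was the lowest of its library in all 3, with a fitted log2 difference of -1.41 (SE 0.07, adjusted p = 2.42e-13). Even so, 77.1%, 82.5% and 78.9% of Ddah1 neurons thinned to 10000 UMIs held a Hand2 UMI. Hand1 (chr11:57828705-57832818, minus strand), its close relative, had 26, 0 and 25 UMIs in the Ddah1 class, or 0.0132, 0 and 0.00993 per 10000, with a log2 difference of -3.86 (SE 0.29, adjusted p = 2.1e-10). Eya1 (chr1:14168954-14310235, minus strand) was at 0.122, 0.232 and 0.193, again the lowest class of each library (log2 -2.06, SE 0.11, adjusted p = 7.45e-13). Gata2, the other GATA factor of the set, was at 0.0645, 0.0766 and 0.0989 (log2 -1.17, adjusted p = 1.7e-07).
Tbx2 (chr11:85832551-85841948, plus strand), a T-box repressor related to Tbx3, was highest in the Ddah1 class, at 0.315, 0.297 and 0.402 UMIs per 10000. No other sum exceeded 0.181, and the log2 difference was 1.72 (SE 0.10, adjusted p = 2.27e-12). Barcodes led by glial markers had 0.79, 0.49 and 0.44 Tbx2 UMIs per 10000, and glial markers stood at 11.6, 8.4 and 8.23 in the Ddah1 class against 10.9, 8.14 and 7.17 in all neurons. With neurons of at least 5 glial UMIs per 10000 left out, the Tbx2 difference was 1.71. Tlx2 reached 2.71, 3.91 and 3.95 in the Ddah1 class, above all other classes of each library (log2 0.72, SE 0.06, adjusted p = 2.65e-09). The zinc finger factor Casz1 was raised in both the Ddah1 class (log2 0.97, adjusted p = 1.31e-09) and the Edn3 class (log2 1.19, adjusted p = 4.46e-10). Onecut2, a cut-homeodomain factor, had 55, 3 and 139 UMIs in the Ddah1 class, and the anterior level there (0.00718) was below that of the other Npy class (0.00942). Pbx3, a TALE homeodomain cofactor, was at 0.0345, 0.0383 and 0.0655 (log2 0.65, adjusted p = 0.00317), a call lost without the posterior library (adjusted p = 0.153). Lmo3, at 0.0127, 0.012 and 0.0143, was called lower (log2 -1.24), but not with thinned neurons (adjusted p = 0.126). The Ebf1 UMIs of the class lay in few cells: 1 mixed neuron held 32 of 40 UMIs and 1 posterior neuron 51 of 82. Lmo4 (log2 0.89) lost the call without the library term (adjusted p = 0.112). Lmo4 was also more abundant in barcodes led by glial markers than in neurons (given below). With neurons of at least 5 glial UMIs per 10000 left out, its Ddah1 call held, but it no longer followed the classes by the rule above and was intermediate.

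**Figure D3:**
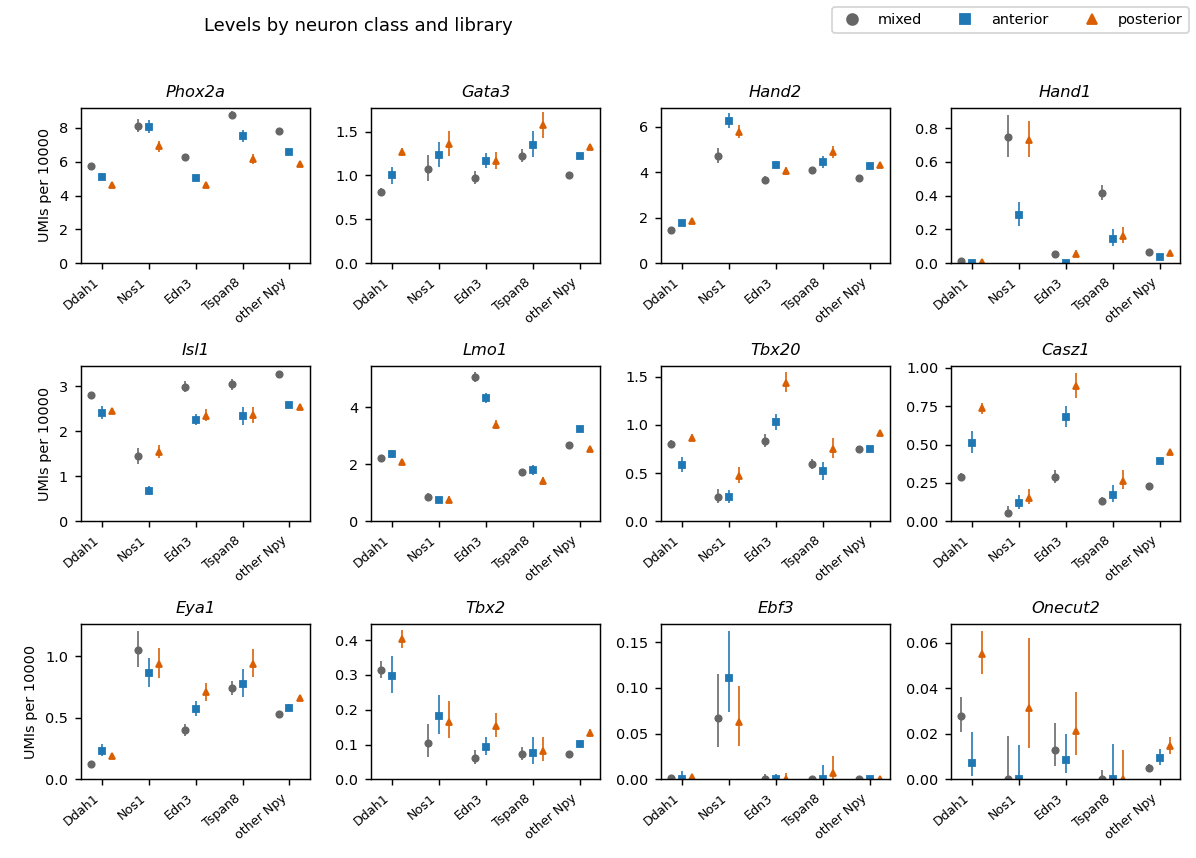
Levels of 12 genes in UMIs per 10000 by neuron class, with 1 symbol per library and exact Poisson 95% intervals, which cover counting error only. Hand2 is lowest in the Ddah1 class of each library, Tbx2 is highest there, and Isl1 and Lmo1 are lowest in the Nos1 class.

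The Nos1 class, which makes neuronal nitric oxide synthase, differed in 12 of the 23 genes: 5 higher, where 7.95% of all genes were, and 7 lower, where 6.36% were. The median absolute log2 difference of the 23 was 0.39, against 0.17 over all genes. At least 2-fold differences were called in 7 (2.97% of all genes were that much higher and 1.33% lower). Hand1, Hand2, Eya1 and Sox4 were higher and Isl1, Lmo1, Casz1, Tbx20 and Satb1 lower under each alternative that tested them. Immediate early genes (Fos, Jun, Atf3, Egr1 and Hspa1a summed) stood at 3.84, 7.23 and 9.76 UMIs per 10000 in this class and at 2.04, 4.24 and 6.63 in all neurons; their part in these differences was not tested. The 3 chromaffin cell markers (Chgb, Slc18a1 and Pnmt) summed to 2.68, 3.19 and 2.59 in this class and to 1.13, 1.28 and 1.61 in all neurons. Chgb made up 2.66, 3.17 and 2.56 of these sums. Slc18a1 had 4, 5 and 8 UMIs in the class (0.0207, 0.0206 and 0.0316 per 10000, against 0.0388, 0.0366 and 0.0592 in all neurons), and Pnmt had none.
Ebf3 (chr7:137193673-137314445, minus strand), a COE family factor, had 13, 27 and 16 UMIs in the Nos1 class, in 10 of 41, 16 of 77 and 10 of 50 neurons. The other Npy class had 3, 2 and 3 UMIs, and the Edn3 class had none in any library. The Ddah1 class had 2, 0 and 7 UMIs and the Tspan8 class 0, 0 and 2, so every library had its highest Ebf3 level in the Nos1 class. Set against the floor of 3 UMIs over the group (0.00168 per 10000), Ebf3 was at least 12.7-fold lower in the Edn3 class than in the mean of the others. The bound was 6.94-fold to 9.87-fold with 1 library left out. That mean rests mainly on the Nos1 class. The other Npy class (0.000386, 0.000554 and 0.000709) lay below the floor, so the bound does not show Ebf3 to be particularly low in the Edn3 class. Hand1 was at 0.746, 0.284 and 0.73 UMIs per 10000, the highest class of each library (log2 3.63, SE 0.20, adjusted p = 4.75e-12). Hand2 reached 4.73, 6.27 and 5.78 (log2 0.71, adjusted p = 1.54e-08) and Eya1 1.05, 0.861 and 0.939 (log2 1.01, adjusted p = 3.31e-07), each the highest class of its library, although posterior Eya1 was nearly as high in the Tspan8 class (0.937). Sox4, a SoxC factor, was likewise highest at 0.995, 0.833 and 1.13 (log2 0.89, adjusted p = 2.57e-06).
Lmo1 (chr7:109138572-109175207, minus strand) was at 0.845, 0.746 and 0.754 UMIs per 10000 in the Nos1 class and between 1.4 and 5.05 in the other sums (log2 -1.74, SE 0.11, adjusted p = 3.02e-11). Isl1 (chr13:116298281-116309689, minus strand) was at 1.44, 0.68 and 1.55, below the 2.26 to 3.28 of all other sums (log2 -1.14, SE 0.13, adjusted p = 4.21e-07). After thinning, 46.3%, 23.4% and 56% of Nos1 neurons held an Isl1 UMI, whereas in the other classes the share was 85.9% to 95.3%. Tbx20, a T-box factor of cardiac and motor neuron development, stood at 0.254, 0.251 and 0.473 (log2 -1.32, adjusted p = 3.56e-08), and Casz1 at 0.057, 0.12 and 0.154 (log2 -1.83, adjusted p = 4.46e-09). Ebf1 had 4, 3 and 23 UMIs in the class, and 1 posterior neuron held 18 of the 23. It was the 1 posterior Nos1 neuron with Npy below 4 and also held all 8 posterior Tlx3 UMIs of the class.

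Within the Nos1 class the same genes were unevenly spread. The split was by Vip, which encodes vasoactive intestinal peptide, at 1 UMI per 10000; it was chosen after its values had been seen and is given without a test. There were 20, 57 and 20 Nos1 neurons with Vip and 21, 20 and 30 without. Isl1 was at 0.198, 0.232 and 0.0698 UMIs per 10000 with Vip and at 2.44, 1.78 and 2.3 without. The values without Vip were below the lowest other class of each library (2.8, 2.26 and 2.35). Lmo1 went from 0.14, 0.395 and 0.128 with Vip to 1.41, 1.61 and 1.07 without. Hand1 was at 0.14, 0.0406 and 0.198 with Vip and at 1.23, 0.881 and 1.0 without. Ebf3 ran the other way, with 13, 26 and 13 of its UMIs in the neurons with Vip and 0, 1 and 3 in those without. Hand2 stood at 4.9, 6.33 and 6.92 with Vip and at 4.6, 6.11 and 5.21 without. The Nos1 class as a whole combined neurons with low Isl1 and neurons with high Hand1. Neurons with Vip were 57 of 77 in the anterior library, where the class had its lowest Isl1 and Hand1, and 20 of 50 in the posterior library.

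**Figure D4:**
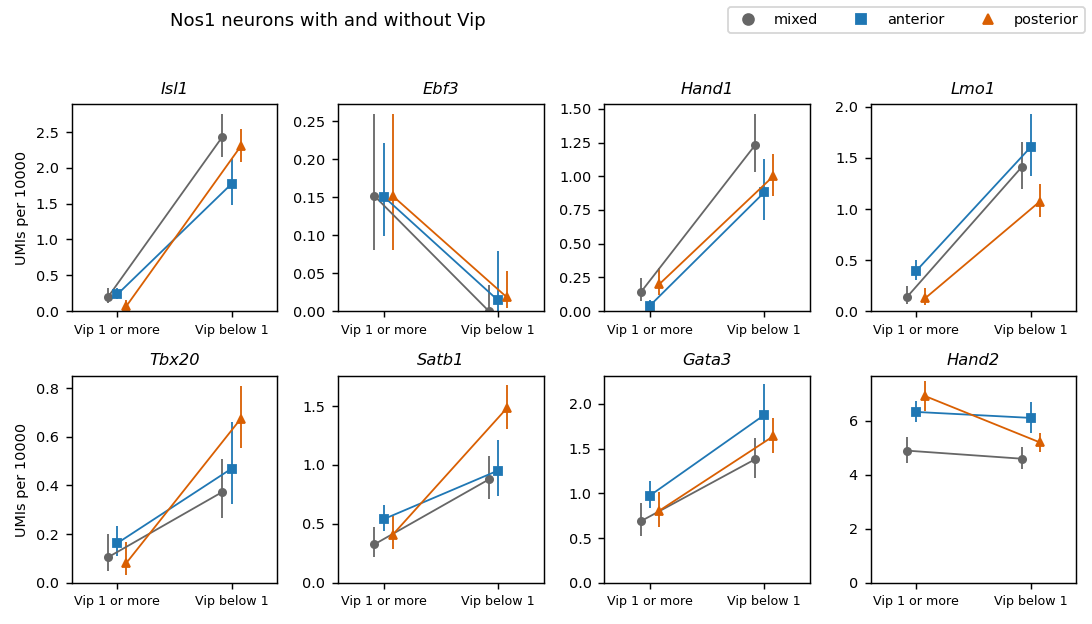
Levels in UMIs per 10000 of 8 genes in Nos1 neurons with at least 1 Vip UMI per 10000 and in those below, with 1 line per library and exact Poisson 95% intervals. Isl1, Hand1 and Lmo1 are lower with Vip in all 3 libraries, Ebf3 is higher, and the Hand2 lines lie between 4.6 and 6.92.

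The Edn3 class differed in 11 of the 23 genes, 5 higher (20.5% of all genes were) and 6 lower (17.3% were), so the higher count was near the background. The median absolute log2 difference of the 23 was 0.26, against 0.22 over all genes. At least 2-fold differences were called in 3 (1.72% of all genes were that much higher and 2.63% lower). Lmo1 was the leading gene, at 5.05, 4.31 and 3.38 UMIs per 10000, the highest class of each library (log2 1.29, SE 0.08, adjusted p = 3.06e-11). Tbx20 was likewise highest at 0.836, 1.03 and 1.44 (log2 0.82, SE 0.08, adjusted p = 1.21e-07). Satb1, a chromatin organizer, was raised by less (log2 0.54, adjusted p = 2.17e-06). Sox4 was lowest at 0.248, 0.362 and 0.53 (log2 -0.90, adjusted p = 1.54e-06); Sox4 was also present at 0.96 to 1.33 in barcodes led by glial markers, which are scarcer in this class, and the log2 value was -0.89 with neurons of high glial RNA left out. Hmx1, a homeobox factor related to Hmx2 and Hmx3, was called higher (log2 0.87, adjusted p = 0.00477), but not without the mixed library (adjusted p = 0.184), with thinned neurons (0.291) or without the library term (0.155).

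The Tspan8 class differed in 14 of the 23 genes, 10 higher (2.96% of all genes were) and 4 lower (2.31% were). The median absolute log2 difference of the 23 was 0.37, against 0.12 over all genes. At least 2-fold differences were called in 2 (0.683% of all genes were that much higher and 0.51% lower). Hand1 stood at 0.416, 0.145 and 0.163 UMIs per 10000, above the Ddah1, Edn3 and other Npy classes in each library and below the Nos1 class (log2 2.19, SE 0.20, adjusted p = 3.32e-07). Eya1 was raised to 0.737, 0.774 and 0.937 (log2 0.81, adjusted p = 1.43e-05), and the Hand1 and Eya1 calls held under each alternative run. Gata2 was at 0.219, 0.2 and 0.354 (log2 0.91, adjusted p = 0.0002), a call lost with thinned neurons (adjusted p = 0.122). Phox2a, Gata3, Hand2, Satb1, Sox4, Hmx3 and Lmo3 were also higher, and all 7 lost the call without the library term (adjusted p from 0.0986 to 0.963). Phox2a further lost it without the anterior or the posterior library, Gata3 without the anterior, Sox4 without the mixed or the anterior and Lmo3 without the mixed. Tbx2 and Casz1 were lower (log2 -0.88 and -0.71), with the same loss without the library term (adjusted p = 0.0908 and 0.579). Tlx2 (log2 -0.38) and Lmo1 (log2 -0.35) were lower too, and neither was called without the posterior library (adjusted p = 0.115 and 0.189). Both also lost the call without the library term (0.843 for each) and with thinned neurons (0.0512 and 0.455). Lmo1 lost it without the anterior library as well (0.102). Onecut2 had no UMI in the Tspan8 class of any library, at least 8.61-fold below the mean of the others by the same floor. That bound fell to 3.94-fold without the mixed and 3.85-fold without the posterior library. The Ddah1 class made up the largest part of that mean. The other Npy class stood at 0.00502, 0.00942 and 0.0147 UMIs per 10000, against a floor of 0.00216 over the Tspan8 group. The Nos1 class also had no Onecut2 UMI in the mixed and anterior libraries.

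Hand1 was found in a minority of neurons in each class. Over all neurons 192, 49 and 103 held any Hand1 UMI, and 143, 31 and 69 held at least 3. Of the neurons with at least 3, the Nos1 class held 17, 7 and 21, the Tspan8 class 45, 6 and 6 and the other Npy class 63, 14 and 30. Among neurons past both the Nos1 and Tspan8 limits, which entered no class, 12 of 14, 3 of 7 and 4 of 11 held a Hand1 UMI. After thinning, 97.5%, 100% and 96.6% of neurons with Hand1 also held Hand2, and 92.5%, 95.2% and 86.9% of those without did.

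The other Npy class, the most numerous, differed in 7 of the 23 genes: 6 higher (1.71% of all genes were) and 1 lower (1.07% were). Lmo1 (log2 0.63, adjusted p = 2.87e-05) and Hmx1 (log2 0.99, adjusted p = 0.000697) had the smallest adjusted p, and no call of the 23 passed 2-fold (0.173% of all genes were that much higher and 0.189% lower). Lmo1 stood at 2.69, 3.24 and 2.53 UMIs per 10000 in this class, below the Edn3 class of each library. Hmx1 stood at 0.0867, 0.0903 and 0.082. That was below the Edn3 class in the mixed (0.105) and anterior (0.0977) libraries and above it in the posterior library (0.0486). Against the equal-weight mean of the other classes, Isl1, Tbx20, Casz1 and Satb1 were higher by 0.24 to 0.44 on the log2 scale. Tbx2 was lower (log2 -0.48). Isl1 had its highest level in this class in each library. Casz1 stood at 0.228, 0.394 and 0.452 UMIs per 10000, below the Ddah1 and Edn3 classes of each library (Edn3 0.289, 0.679 and 0.882). Tbx20 was below the Edn3 class, and Satb1 below the Edn3 and Tspan8 classes, in each library. All 7 lost the call without the library term (adjusted p from 0.503 to 1). Without the anterior library Isl1 (adjusted p = 0.114), Tbx2 (0.119), Casz1 (0.148), Tbx20 (0.273) and Satb1 (0.417) were not called.

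Anterior and posterior neurons came from 1 library each, so their difference has no replicate check and no test. Of 25 genes with UMIs in both libraries and a mean level of at least 0.01 UMIs per 10000, 18 were higher in the posterior and 7 in the anterior library, a share of 72% where 66.5% of all genes were higher in the posterior library. Of the 25, 2 lay past 2-fold, where 1.7% of 12239 genes did (1.65% higher and 0.049% lower in the posterior library). Within the other Npy class 1 of 24 lay past 2-fold, where 0.615% of 12031 genes did. The median log2 posterior to anterior ratio was 0.13 for the 25 and 0.10 over all genes. Tbx2 was 1.82-fold higher in the posterior neurons (0.217 against 0.12 UMIs per 10000; 95% interval of the ratio 1.66 to 1.99, counting error only). The Ddah1 class, where Tbx2 was highest, made up 30.1% of posterior and 7.83% of anterior neurons, and within it the ratio was 1.36 (1.12 to 1.65). Within the other Npy class it was 1.32 (1.15 to 1.51). Onecut2 was 3.51-fold higher over all neurons and 1.56-fold (1.01 to 2.44) within the other Npy class. For Sox11 the ratio was larger within a class: 1.95-fold over all neurons and 2.4-fold (2.05 to 2.82) within the other Npy class, where its mixed level of 0.0597 was close to the anterior 0.059. Ebf1 was at 222 UMIs in the posterior and 19 in the anterior neurons; 93 of the 222 lay in the 74 posterior neurons with no marker gate, which carried 14.6 UMIs per 10000 of fibroblast markers, and Ebf1 stood at 2.95 to 3.18 in barcodes led by fibroblast markers.
Lmo1 (ratio 0.747, interval 0.731 to 0.763), Phox2a (0.835), Hmx1 (0.689) and Hand2 (0.85) were lower in the posterior neurons. Within the other Npy class the ratio was 0.781 for Lmo1, 0.884 for Phox2a and 0.908 for Hmx1. For Hand2 it was 1.01 there (0.985 to 1.03), so the lower level over all neurons was not seen within that class. Hand1 in the Nos1 class was 2.57-fold higher in the posterior library (1.94 to 3.44), beside the different share of Vip neurons given above.

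**Figure D5:**
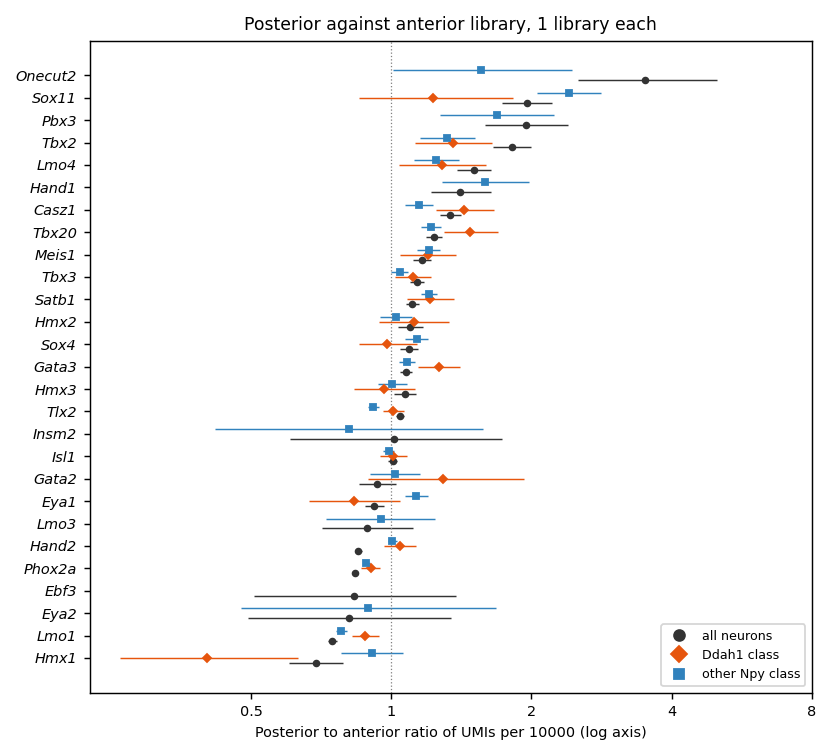
Ratio of posterior to anterior level for members with at least 20 UMIs in each library, over all neurons, in the Ddah1 class and in the other Npy class, on a log axis with exact conditional Poisson 95% intervals. Onecut2 lies at 3.51 over all neurons, and Hand2 lies at 0.85 over all neurons and at 1.01 in the other Npy class.

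Several of these genes were also found outside the neurons. Lmo4 stood at 2.35, 3.03 and 3.32 UMIs per 10000 in barcodes led by glial markers and at 0.106, 0.151 and 0.227 in neurons. At a common 2000 UMIs, 41.9%, 47.9% and 39.5% of the glia-like barcodes (median depth 3941.5 to 4630.5 UMIs) held Lmo4, and 2.5%, 3.42% and 4.91% of neurons (39854 to 57151). Sox4 and Tbx2 were also more frequent in glia-like barcodes (18.5% to 20.8% and 8.64% to 13.5%) than in neurons (11.1% to 11.6% and 2.4% to 4.08%). Hand2 was found in 25% to 27.0% of glia-like barcodes and 45.6% to 52.7% of neurons, while Phox2a was found in 4.17% to 10.5% and 57.4% to 73.6%. In UMIs per 10000, glia-like barcodes held 1.67, 1.39 and 1.49 of Hand2 and 0.329, 0.293 and 0.588 of Phox2a, so Hand2 exceeded Phox2a there while Phox2a exceeded Hand2 in neurons. In the 15, 10 and 35 barcodes led by macrophage markers, Hand2 stood at 0.0948, 0 and 0.116. Ebf1 was at 2.5 to 4.82 in barcodes led by endothelial markers, and Tbx20 at 1.13 to 2.78 in those led by fibroblast markers. Isl1, Gata3 and Tlx2 were at 0.332 or less in glia-like barcodes.

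Of 27 genes that act with the members (E proteins, LIM-domain binders, Pbx proteins, cofactors of GATA factors and others), 14 were tested and 7 differed among classes, where 47.0% of all genes did. Tcf4, an E protein that pairs with bHLH factors, was higher in the Nos1 class (log2 0.57, adjusted p = 2.71e-06) and lower in the Edn3 class (log2 -0.45, adjusted p = 5.29e-05). Six4, a partner of Eya proteins, had 0, 2 and 1 UMIs in the Nos1 class, at or under the floor of 3, against 0.0169, 0.0327 and 0.0328 UMIs per 10000 in the mean of the other classes (adjusted p = 0.00192). In the Ddah1 class Six4 was called higher than the equal-weight mean of the others (log2 0.69, adjusted p = 0.0373), which includes the Nos1 class. Its level there (0.0178, 0.0335 and 0.033) was below that of the Tspan8 class (16, 8 and 10 UMIs) in each library, so the Ddah1 class was not the highest. Pknox1, a TALE factor, was lower in the Ddah1 class (log2 -0.62, adjusted p = 3.35e-05). The median log2 over the 14 was 0.07 in the Ddah1 class and 0.11 in the Nos1 class, against 0.00294 and -0.00784 over all genes.

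Of 12 transmitter genes tested, 11 differed among classes, where 47.0% of all genes did. Whether the members act on them was not tested. Gch1, which makes the cofactor of catecholamine synthesis, was lower in the Ddah1 class (log2 -2.84, adjusted p = 1.61e-13) and higher in the Nos1 class (log2 1.36, adjusted p = 3.11e-08). Slc18a2, the vesicular monoamine transporter, stood at 0.311, 0.342 and 0.379 in the Nos1 class and at 0.00155, 0.000346 and 0.0408 in the mean of the other classes. Gal was higher (log2 3.06, adjusted p = 2.44e-10) and Cartpt lower (log2 -2.98, adjusted p = 6.09e-14) in the Ddah1 class, while Cartpt was higher in the Edn3 class (log2 2.12, adjusted p = 3.35e-13). The noradrenaline transporter gene Slc6a2 was called in the Tspan8 class (log2 7.51), but its levels there were 0.00115, 0 and 0.675, so the call rests on the posterior library. The median log2 over the 12 genes was -0.54 in the Ddah1 class and 0.29 in the Edn3 class, against 0.00294 and 0.000586 over all genes.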

How the data were processed

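Each library was a 10x Genomics 3' V3 matrix of UMI counts per gene and barcode, filled by Cell Ranger before it was deposited, per the file headers (version 3.1.0 for the mixed, 6.1.2 for the other libraries); the submitters' processing notes name Cell Ranger 7.1.0, Seurat 4.4.2 and mm10. Whether libraries share animals is not given in the sources used here, so p-values cannot be read as measuring the spread between animals. They measure how class differences vary from library to library, after the library term has removed each library's own level. The libraries also differ in region and labelled age. Levels are UMIs per 10000 of the cell's or group's total.

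Neurons were gated and classed as described, and counts were summed per library and class (15 sums). edgeR 4.0.16 (R 4.3.3) quasi-likelihood tests with TMM scaling and class and library terms ran on 12146 genes with a mean of at least 1 CPM, each class against the equal-weight mean of the other 4, with Benjamini-Hochberg adjustment over all tested genes; all adjusted p-values are from this test unless another is named. The library term is the block: the classes of a library are cut from the same cells, so its sums are paired. DESeq2 1.42.0 was an alternative. The code was tested on simulated data. No doublet caller was run; neurons with glial RNA or the deepest 5% were left out as alternatives. Shares were taken after thinning each cell to 10000 UMIs, or 2000 against glia-like barcodes (21, 74 and 43 shallower ones left out). Barcodes outside the neuron gate had at least 1000 UMIs and at most 20% mitochondrial UMIs, and took the name of the marker list with the highest sum if 3 of its markers were present. Poisson and conditional Poisson 95% intervals cover counting error only.

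The members and lists were chosen with earlier results of these data known. Named genes are all members, and from the partner and transmitter lists up to 3 per class with the largest differences among those called; 1 partner gene named by this rule is not reported here. Promoters come from the RefSeq GRCm38.p6 table, gene positions from GENCODE vM21.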

Additional observations from a re-analysis of the deposited data

Results flagged for a closer look

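Tlx2 in the Edn3 class lay on opposite sides of the other classes in the regional libraries: the ratio to the pooled neurons of the other 4 classes was 1.069 for anterior and 0.9239 for posterior neurons, each beyond counting error. There is 1 library per region, and the difference between them was not tested. Against the equal-weight mean of the other classes the ratios were 0.988 and 1.005, so the opposite sides depend on how the other classes are weighted.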

How the results depend on the processing

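Of 69 calls of a member in a class, 28 were made under each alternative that tested them, 41 were lost under at least 1, and none reversed; without Onecut2, Ebf1 and Ebf3, which passed the level filter through 1 class, 26 of 62 calls were made throughout. The member counts below include these 3. The pairing of sums by library mattered most: without the replicate block (no library term), edgeR called 1249 genes and 15 members among classes, against 5709 and 24. In the Ddah1 class it then called 1229 genes and 11 members (3984 and 20 with the block), in the Nos1 class 602 genes (1739), in the Edn3 class 784 genes and 6 members (4594 and 12), in the Tspan8 class 91 genes and 3 members (640 and 15) and in the other Npy class 4 genes and 0 members (338 and 8; at an unadjusted p under 0.05 it found 6 members). Thinning neurons to 10000 UMIs lowers the counts tested and also changed the classes, which were formed anew from the thinned counts. The Tspan8 class then held 278 mixed, 121 anterior and 97 posterior neurons (165, 66 and 56 before). Calls lost with thinned neurons can therefore come from either change. This run gave 3172 genes among classes, 2290 in the Ddah1, 705 in the Nos1, 2038 in the Edn3 and 185 in the other Npy class. The other Npy class had 651 genes with no level filter, and the Tspan8 class had 974 without the deepest 5% of neurons. Leaving out 1 library gave 3029 to 6547 genes among classes, 2233 to 4377 in the Ddah1, 770 to 1758 in the Nos1, 2098 to 5494 in the Edn3, 313 to 585 in the Tspan8 and 122 to 940 in the other Npy class, where 4 to 10 members were called. In all 6 gene ranges the highest count was without the mixed library; the lowest was without the posterior library among classes and in the Ddah1 class, and without the anterior library in the other 4 classes. The posterior to anterior log2 ratio of Tlx2 turned to -0.0052 with thinned neurons. The cause of these changes was not tested. Meis1 was called among classes without the mixed library and under 2 other alternatives. Depth limits the low members: Ebf3 in the Nos1 class rested on 13, 27 and 16 UMIs. Limiting the Nos1 class to neurons with Npy of at least 4, an alternative chosen after seeing the data, ended the call of Ebf1 in that class and of Satb1 in the other Npy class.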

Other observations

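Barcodes with at least 2 Insm1 UMIs numbered 11, 9 and 29 (order mixed, anterior, posterior), of which 0, 1 and 10 were in the neuron gate. The 11, 8 and 19 outside it had median depths of 7655, 6702 and 6459 UMIs. In those of the mixed and anterior libraries the secretory granule gene Chgb stood at 147 and 110 UMIs per 10000, Hand2 at 10.3 and 17.9, Phox2a at 6.76 and 8.69 and the vesicular monoamine transporter gene Slc18a1 at 3.5 and 1.7. In the posterior library the same genes stood at 8.08, 1.05, 0.647 and 0.404. The posterior set held Meis2 at 8.16 and Slc6a2 at 4.61 UMIs per 10000, and neither gene had a UMI in the mixed and anterior sets. The posterior set thus differed from the other sets in more than the level of these genes. Pnmt, which makes adrenaline, had no UMI in any of the 3 sets, and Gata2 had none in the mixed and anterior sets.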
